A study of Mus musculus with 6 samples.

Results

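The genes described here encode the heat shock proteins and their co-chaperones in mouse embryonic fibroblasts labelled WT or Fbxw7 KO (knockout). A locus was a member if its gene symbol was an Hspa, Hspb, Hspd, Hspe, Hsph or Hsp90 gene, a numbered Dnaja, Dnajb or Dnajc gene, one of the genes Bag1 to Bag6 or Hsf1 to Hsf5, or Cryab. The rule found 82 of 51997 named loci, and it used symbols only, not expression. By symbol, 13 belonged to the HSP70 family, 1 to HSP110, 3 to HSP90, 9 to the small heat shock proteins, 2 to the mitochondrial chaperonin, 4 to DNAJA, 13 to DNAJB, 26 to DNAJC, 6 to BAG and 5 to the heat shock factors.

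HSP70 proteins bind exposed hydrophobic stretches of other proteins and release them in a cycle driven by ATP. J proteins (DNAJ) deliver substrates and start ATP hydrolysis, HSP110 and BAG proteins exchange the nucleotide, HSP90 finishes the folding of kinases and receptors, and small heat shock proteins hold unfolded proteins without using ATP. Heat shock factors, HSF1 above all, switch on many of these genes under stress, and FBXW7, the substrate-binding part of an SCF ubiquitin ligase, has been described to bind phosphorylated HSF1 protein and mark it for degradation.

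The series makes a single comparison: RNA-seq of embryonic fibroblasts, connective-tissue cells grown out of mouse embryos, in 3 libraries labelled WT and 3 labelled Fbxw7 KO. All were grown in DMEM with fetal bovine serum and non-essential amino acids, with no stress or drug named. The labels gave no strain, age, sex, deleted exons, Cre driver or clone, and did not say whether replicates came from separate cultures, so p-values measure only the spread between these libraries. The libraries held 55720129 to 64198455 estimated fragments each in the deposited table.

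Some facts of the libraries stand beside every result. Fbxw7 itself was at 29.3 ± 0.869 CPM (counts relative to library size, mean ± SD, n = 3) in WT and 26.4 ± 1.97 CPM in the knockout, a log2 fold change of -0.16 ± 0.10 (SE, adjusted p = 0.332), which checks no label because the deleted part was not given. Xist was at 0.213 to 2.17 CPM in WT libraries and 798 to 1046 CPM in knockout libraries, and the Y-linked Ddx3y at 81.8 to 109 against 24.0 to 35.9 CPM, so embryo sex and genotype cannot be told apart. Replicate 3 stood apart in both genotypes. The median squared difference of its counts from those of replicates 1 and 2 was 26.8 to 42.6 times that of sampling noise. Between replicates 1 and 2 the same measure was 7.42 times in WT and 6.56 times in the knockout. The 12 fibroblast markers were all tested and summed to 32327 to 43033 CPM in WT against 33797 to 40847 CPM in the knockout, but 4 of them passed the test: Lum rose (13.8 ± 8.89 to 233 ± 122 CPM, log2 fold change 4.08) and so did Dcn (1.56), while Vim (-0.83) and S100a4 (-2.04) fell. Of 12 muscle markers 4 were tested and 0 passed in edgeR (2 had an unadjusted p under 0.05), with sums of 10.3 to 13.6 and 5.39 to 9.57 CPM, and Myod1, Actc1 and Myl1 were at 0. Neural markers (4 of 10 tested, of which Map2 and Syt1 fell, and Rbfox3, Snap25 and Olig2 at 0) summed to 25.1 to 29.0 and 8.73 to 19.7 CPM, and macrophage and blood markers (3 of 10 tested, of which Lyz2 and Cd68 fell, and Adgre1, Tyrobp and Hbb-bs at 0) to 18.6 to 21.2 and 10.9 to 13.6 CPM. Epithelial markers (1 of 10 tested, Krt8 and Krt14 at 0) summed to 0.680 to 3.79 and 1.36 to 1.48 CPM, and endothelial markers are given beside Hspa12b. The muscle marker Acta1 and the neural marker Tubb3 had no single locus among those used, so the sums leave them out.

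A subset of chaperone genes, among them the stress-inducible HSP70 gene Hspa1b, Hsph1, Cryab, Hspb8 and Bag3, fell in the knockout, and 4 rose, among them the mitochondrial HSP70 gene Hspa9. Most members did not pass the test. Of the 82 loci 75 had enough fragments to be tested. At an adjusted p under 0.05 (edgeR quasi-likelihood test, Benjamini-Hochberg over 16787 genes) 14 of the 75 passed, that is 18.7%, and over all genes 16.1% did. The share of members called is thus near that of all genes. By direction, 10 members fell (13.3%) where 8.08% of all genes did, and 4 rose (5.33%) where 8.03% did. The median log2 fold change of the members was -0.08 and that of all genes 0.01, and 45 of the 75 members (60.0%) lay below 0, against 49.2% of all genes. That tally depends on the scaling: 40 of 75 lay below 0 with upper-quartile factors and 35 of 75 with library size only. The scaling moved all genes as well. With upper-quartile factors the median was -0.04 for the members and 0.05 for all genes, and with library size only 0.02 and 0.10. In 20 members every knockout library was below every WT library, and in 8 every one was above. These are 26.7% and 10.7% of the members tested, where 18.4% and 19.2% of all genes had such groups. With fewer cells of a type or less RNA per cell, bulk RNA would give the same values, so the 2 cannot be told apart.

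The 7 members below the count filter were Dnajb7, Dnajb8, Dnajb13, Dnajc22, Hsf3, Hspb3 and Hspb9, each at no more than 0.294 CPM in any library. Members above the filter covered a wide range of abundance. On the FPKM scale (fragments per transcript length and library size, which allows genes to be compared) Hsp90ab1 had the highest interpretable level, with 1091 ± 145 in WT and 1249 ± 112 in the knockout. Hsp90b1 followed with 654 ± 76.3 and 470 ± 121, and Hspa5 with 413 ± 54.5 and 374 ± 18.7. Together the members took 0.907% to 1.08% of the WT libraries and 0.979% to 1.04% of the knockout libraries.

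**Figure D1:**
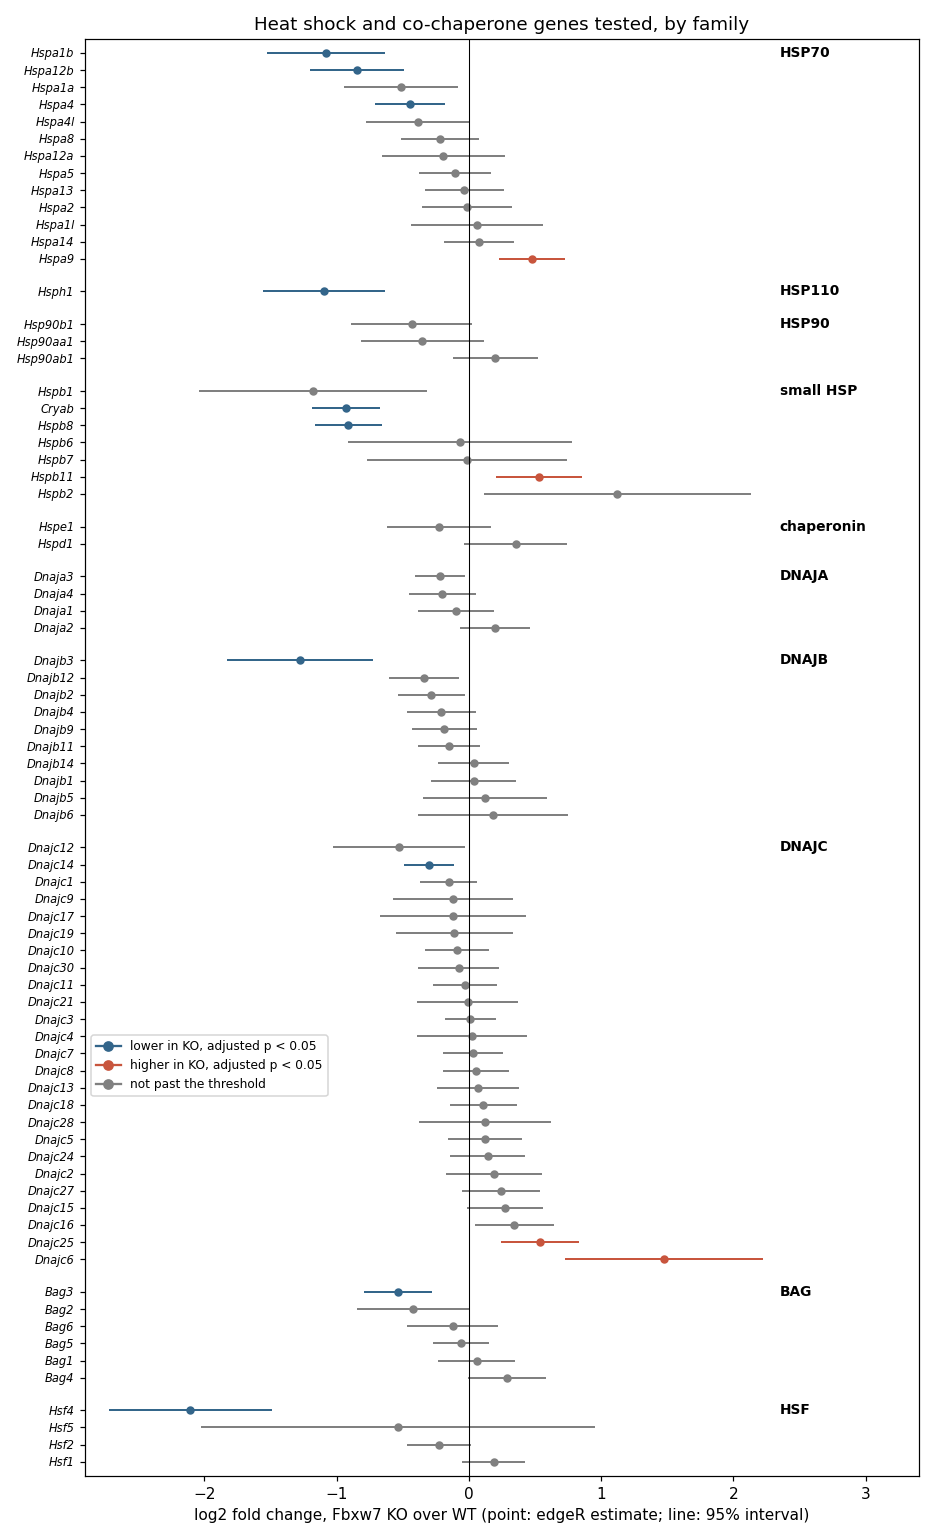
Each point is the log2 fold change of a tested member between Fbxw7 KO and WT, and each line is its 95% interval from the edgeR fit with n = 3 libraries per genotype. Members are grouped by family. The 10 blue points passed the threshold below 0 and the 4 red points above it, and the DNAJC genes lie mostly around 0.

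The heat shock factors are the transcriptional regulators of the group. Hsf1 was at 34.8, 37.5 and 41.6 CPM in the WT libraries and at 44.0, 44.6 and 41.1 CPM in the knockout libraries. The highest WT library lay within the knockout range, so the groups overlapped. The log2 fold change was 0.19 ± 0.10 with a 95% interval of -0.04 to 0.42 and an adjusted p of 0.247. These are RNA values, and HSF1 protein was not measured. Hsf2, a second factor that can pair with HSF1, was at 35.6 ± 1.29 and 30.4 ± 2.69 CPM (log2 fold change -0.22 ± 0.10, adjusted p = 0.177).

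Hsf4, the factor best known from the lens (chromosome 8, 105269801 to 105275845, mm10), was low and fell the furthest of the tested members. Its level was 2.34, 3.10 and 3.37 CPM in WT against 0.497, 0.774 and 0.768 CPM in the knockout. All 3 knockout libraries were below all 3 WT libraries, and the log2 fold change was -2.11 ± 0.26 (adjusted p = 0.00237). Hsf5, a testis factor, was at 0.149 and 0.102 CPM, with a log2 fold change of -0.54 ± 0.64 and an adjusted p of 0.616. Its 95% interval, -2.02 to 0.95, was wide.

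The inducible HSP70 pair Hspa1a and Hspa1b carry nearly the same protein and are the classical targets of HSF1. In the GENCODE M21 transcripts their open reading frames had 1926 and 1929 bases, of which 8 differed and 3 were unaligned (99.6% identity), and the encoded proteins of 641 and 642 residues had 0 differing residues and 1 unaligned. Of all windows of 50 bases in each transcript, 66.3% of those of Hspa1a and 62.3% of those of Hspa1b also occurred in another gene, so the split of reads between both loci is an estimate and each single value is uncertain. The promoters are shown to let the copies be compared. They are the 250 bases before the RefSeq start sites on the minus strand (GRCm38.p6), Hspa1a at chr17:34972157-34972406 and Hspa1b at chr17:34959239-34959488, and they differ at 3 of 250 bases. Capitals mark GAANNTTC, a pair of the units that heat shock factors bind, whose first base lies 104 bases before the start in both.
Hspa1a: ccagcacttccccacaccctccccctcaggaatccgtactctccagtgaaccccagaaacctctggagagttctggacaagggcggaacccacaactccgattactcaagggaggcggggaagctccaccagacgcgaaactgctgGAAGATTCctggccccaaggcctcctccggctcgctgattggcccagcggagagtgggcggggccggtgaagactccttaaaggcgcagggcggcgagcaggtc
Hspa1b: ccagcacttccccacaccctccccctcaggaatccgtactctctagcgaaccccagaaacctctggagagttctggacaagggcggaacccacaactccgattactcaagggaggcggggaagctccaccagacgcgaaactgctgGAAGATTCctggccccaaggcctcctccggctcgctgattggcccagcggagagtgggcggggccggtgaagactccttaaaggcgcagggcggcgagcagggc

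Hspa1b (chromosome 17, 34956436 to 34959238) was at 25.6, 25.9 and 36.4 CPM in WT libraries and at 14.3, 16.0 and 11.2 CPM in the knockout. Each knockout library was below each WT library, and replicate 3 was the highest WT and the lowest knockout library. The log2 fold change was -1.08 ± 0.19 (adjusted p = 0.00898). Hspa1a (chromosome 17, 34969190 to 34972156), which overlaps the antisense gene Gm20481 over 19.0% of its exonic bases, was at 8.49, 9.39 and 8.96 CPM in WT libraries and at 5.64, 7.96 and 5.24 CPM in the knockout. The groups did not overlap, but the log2 fold change of -0.51 ± 0.18 did not pass (adjusted p = 0.0994). The adjusted p of Hspa1a was 0.0402 without knockout replicate 2 and 0.129 to 0.279 without any other single library. Hspa1a was called lower by DESeq2 with all 6 libraries, where 21.7% of all genes passed.

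The sum of both loci does not depend on the split between them. It was 34.0, 35.2 and 45.3 CPM in WT against 20.0, 23.9 and 16.4 CPM in the knockout. All knockout libraries were again below all WT libraries. The mean fell from 38.2 ± 6.20 to 20.1 ± 3.74 CPM, that is to 52.6% of WT, with a log2 fold change of -0.93 ± 0.17 (95% interval -1.32 to -0.53, adjusted p = 0.0111). Without knockout replicate 1 the adjusted p was 0.0522 at the same log2 fold change of -0.93. Hspa1b held 73.4% to 80.2% of the sum in WT and 66.7% to 71.7% in the knockout, a share that rests on the estimated split. Hspa1l, a related testis gene that starts 547 bases from Hspa1a on the opposite strand, was at 1.39 ± 0.214 and 1.45 ± 0.0839 CPM (log2 fold change 0.06 ± 0.21, adjusted p = 0.880).

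**Figure D2:**
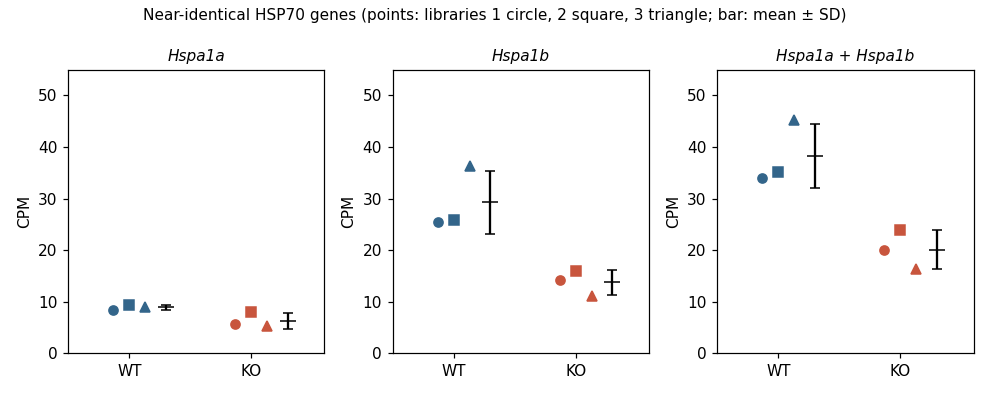
The vertical axis gives CPM of Hspa1a, Hspa1b and their sum, with 1 point per library (circle, square and triangle for replicates 1, 2 and 3) and the mean ± SD of 3 libraries beside them. The knockout points of the sum lie at 16.4 to 23.9 CPM, all below the WT points at 34.0 to 45.3 CPM.

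The HSP110 proteins, large relatives of HSP70 that exchange its nucleotide, are encoded by Hsph1 and, by sequence relation, Hspa4 and Hspa4l. Hsph1 (chromosome 5, 149614287 to 149636376) was at 332, 314 and 466 CPM in WT libraries and at 191, 194 and 136 CPM in the knockout. Every knockout library lay below every WT library, with replicate 3 again at both extremes. The mean fell from 371 ± 83.2 to 174 ± 33.1 CPM, 46.9% of WT, with a log2 fold change of -1.09 ± 0.20 (adjusted p = 0.0101). It passed with each library left out in turn, with adjusted p up to 0.0364. Hsph1 is one of 4 members with the 3-unit heat shock element in the RefSeq promoter window, shown here in capitals 15 or 36 bases after its 2 RefSeq starts (chr5:149636280-149636308, minus strand, GRCm38.p6).
Hsph1: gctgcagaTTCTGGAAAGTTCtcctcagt

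Hspa4 (chromosome 11, 53259814 to 53300457) was at 492, 470 and 548 CPM in WT libraries and at 400.1, 376 and 335 CPM in the knockout. The groups did not overlap, and the level fell by 0.44 ± 0.11 on the log2 scale (adjusted p = 0.0342). This call did not survive the loss of any library: the adjusted p was 0.0992, 0.0704 and 0.0521 without WT replicates 1, 2 and 3, and 0.0856, 0.0995 and 0.0504 without knockout replicates 1, 2 and 3. Hspa4l was at 24.8 ± 2.77 and 19.0 ± 3.97 CPM, with overlapping groups and a log2 fold change of -0.38 ± 0.17 (adjusted p = 0.161). Its adjusted p was 0.0253 without knockout replicate 3 and 0.178 to 0.395 without any other single library.

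Hspa9, the HSP70 of the mitochondrial matrix (chromosome 18, 34937414 to 34954357), moved the other way. It was at 739, 687 and 791 CPM in WT libraries and at 1029, 986 and 1076 CPM in the knockout. All knockout libraries were above all WT libraries, and the mean rose from 739 ± 52.1 to 1030.2 ± 45.2 CPM, a log2 fold change of 0.48 ± 0.10 (adjusted p = 0.0204). The adjusted p rose to 0.0867 and 0.0868 without WT replicates 1 and 2 and to 0.0966 and 0.0628 without knockout replicates 1 and 2.

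Hspa12b, a distant HSP70 relative known from endothelial cells (chromosome 2, 131127280 to 131146321), was at 52.6, 53.2 and 43.7 CPM in WT libraries and at 28.6, 32.0 and 22.4 CPM in the knockout. The groups did not overlap, and the mean fell from 49.8 ± 5.29 to 27.7 ± 4.89 CPM (log2 fold change -0.85 ± 0.15, adjusted p = 0.00972). Of 10 endothelial markers 4 were tested and 2 fell, Kdr and Tek. The markers summed to 8.15 to 10.2 CPM in WT against 1.79 to 2.69 CPM in the knockout, Cldn5 and Tie1 were at 0, and Pecam1, Cdh5, Emcn, Esam and Erg stayed under 1 CPM in every library. Their part in the fall of Hspa12b was not tested.

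The other HSP70 members did not pass. Hspa5, the HSP70 of the endoplasmic reticulum (ER), was at 893 ± 97.1 and 829 ± 37.6 CPM (log2 fold change -0.11 ± 0.11, adjusted p = 0.578). Hspa8, the constitutive cytosolic HSP70, was at 142 ± 21.0 and 123 ± 6.93 CPM (log2 fold change -0.22 ± 0.12, adjusted p = 0.280). Its locus also holds the small nucleolar RNAs Snord14c, Snord14d and Snord14e, and 74.8% of its windows of 50 bases occur in other genes. With 7 pseudogene loci added, the Hspa8 sum was 460.1 ± 58.4 CPM in WT against 474 ± 25.6 CPM in the knockout, or 103% of WT. Because of the small RNAs the FPKM of this locus is not comparable with that of other genes. Of the 13 genes placed in HSP70 by symbol, 3 fell (23.1%, against 8.08% of all genes) and 1 rose (7.69%, against 8.03%). Their median log2 fold change was -0.19. The 3 that fell include Hspa4, an HSP110 relative by sequence whose call was lost with any library left out.

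Of the 3 HSP90 genes 0 passed the edgeR test, 0 had an unadjusted p under 0.05, and DESeq2 called 0. Hsp90b1, the HSP90 of the ER, was at 1844, 1633 and 2032 CPM in WT libraries and at 1171.5, 1129 and 1781 CPM in the knockout. Knockout replicates 1 and 2 were below all WT libraries, while replicate 3 lay inside the WT range. The log2 fold change was -0.43 ± 0.19 (adjusted p = 0.171). Without knockout replicate 3 the adjusted p was 0.0128, where 19.1% of all genes passed, and without any other single library it was 0.216 to 0.420. Hsp90aa1, the inducible cytosolic form, was at 73.3 ± 12.9 and 57.5 ± 14.6 CPM (log2 fold change -0.35 ± 0.20, adjusted p = 0.270), with 58.5% of its windows in other genes. Its adjusted p was 0.0464 without knockout replicate 3 and 0.221 to 0.551 without any other single library. With 3 pseudogene loci added Hsp90aa1 was at 222 ± 37.0 and 183 ± 50.25 CPM. Hsp90ab1, the constitutive cytosolic form, was at 1727, 1685 and 2042 CPM in WT libraries and at 2194, 2261 and 1817 CPM in the knockout, and knockout replicate 3 again fell inside the WT range. Its log2 fold change was 0.20 ± 0.14 (adjusted p = 0.357).

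Small heat shock proteins form large oligomers that hold unfolding proteins. Of the 7 tested 2 fell (28.6%, against 8.08% of all genes) and 1 rose (14.3%, against 8.03%). Summed over the family, the genes were at 206 to 218 CPM in WT libraries and at 117 to 141 CPM in knockout libraries. Most of this sum came from Cryab and Hspb8, the 2 that fell, and the median log2 fold change of the 7 was -0.07. Cryab, the alpha-B crystallin of lens and muscle (chromosome 9, 50751325 to 50756636), was at 113, 111 and 94.2 CPM in WT libraries and at 51.0, 56.4 and 59.8 CPM in the knockout. Hspb8, a partner of the co-chaperone BAG3 (chromosome 5, 116408491 to 116422864), was at 69.7, 66.4 and 66.4 CPM in WT libraries and at 32.7, 34.4 and 40.6 CPM in the knockout. In both genes all knockout libraries were below all WT libraries, with a narrow spread inside each genotype. Cryab fell to 52.5% of WT (log2 fold change -0.93 ± 0.11, adjusted p = 0.00182) and Hspb8 to 53.2% (log2 fold change -0.91 ± 0.11, adjusted p = 0.00175).

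Cryab and Hspb2, a muscle small heat shock protein, lie head to head and share exons on opposite strands, 17.0% of the exonic bases of Cryab and 30.2% of those of Hspb2. The sources used here do not say whether counting used strand, so reads of that stretch cannot be assigned with certainty. Hspb2 was at 0.319, 0.266 and 0.147 CPM in WT libraries and at 0.789, 0.454 and 0.358 CPM in the knockout. Its groups did not overlap and its values lay on the other side from those of Cryab, but the log2 fold change of 1.12 ± 0.43 did not pass (adjusted p = 0.120).

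Hspb1, the most studied small heat shock protein, was at 12.2, 10.6 and 11.7 CPM in WT libraries and at 5.45, 7.52 and 2.29 CPM in the knockout. The groups did not overlap, yet the wide spread in the knockout left the log2 fold change of -1.18 ± 0.37 short of the threshold (adjusted p = 0.0670). Hspb1 had adjusted p of 0.0472 and 0.0182 without knockout replicates 2 and 3 and of 0.106 to 0.176 without any other single library. Hspb1 was called lower by DESeq2 with all 6 libraries, where 21.7% of all genes passed. It shares 51.6% of its windows with other genes, and together with its pseudogene Hsp25-ps1 it was at 21.0 ± 0.992 CPM in WT against 9.16 ± 4.06 CPM in the knockout, 43.7% of WT. Hspb11, which carries a small heat shock name but works in intraflagellar transport, was at 12.0, 10.4 and 9.50 CPM in WT libraries and at 15.4, 13.9 and 16.7 CPM in the knockout. It rose with a log2 fold change of 0.53 ± 0.14 (adjusted p = 0.0363). That call was lost without any 1 library, with adjusted p of 0.0599, 0.120 and 0.0599 without WT replicates 1, 2 and 3 and of 0.124, 0.0625 and 0.0587 without knockout replicates 1, 2 and 3. Hspb6, a smooth and striated muscle protein, was high in replicate 3 of both genotypes, with 10.6, 11.8 and 23.8 CPM in WT against 11.5, 11.4 and 21.3 CPM in the knockout (adjusted p = 0.923).

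BAG proteins release nucleotide and substrate from HSP70, and BAG3 joins it to HSPB8 in the disposal of damaged muscle and cytoskeletal proteins. Bag3 (chromosome 7, 128523616 to 128546981) was at 112, 125 and 126 CPM in WT libraries and at 85.0, 91.4 and 74.2 CPM in the knockout. Each knockout library was below each WT library, and the mean fell from 121 ± 7.78 to 83.55 ± 8.72 CPM, 69.0% of WT (log2 fold change -0.54 ± 0.11, adjusted p = 0.0144). Without WT replicate 2 the adjusted p was 0.0608, and without knockout replicate 1 it was 0.0645. Bag2, an inhibitor of the ligase CHIP, was at 64.6, 64.4 and 101.5 CPM in WT libraries and at 57.0, 60.4 and 55.1 CPM in the knockout. Only WT replicate 3 stood far from the others. The log2 fold change was -0.42 ± 0.18 (adjusted p = 0.157), and without that library it was -0.17 (adjusted p = 0.224). The most abundant BAG genes by FPKM, Bag6, a sorting factor for tail-anchored proteins, and Bag1, the founding BAG protein, had log2 fold changes of -0.12 ± 0.14 (adjusted p = 0.615) and 0.06 ± 0.12 (adjusted p = 0.786). Bag4 and Bag5 had values of 0.29 and -0.06 that did not pass.

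**Figure D3:**
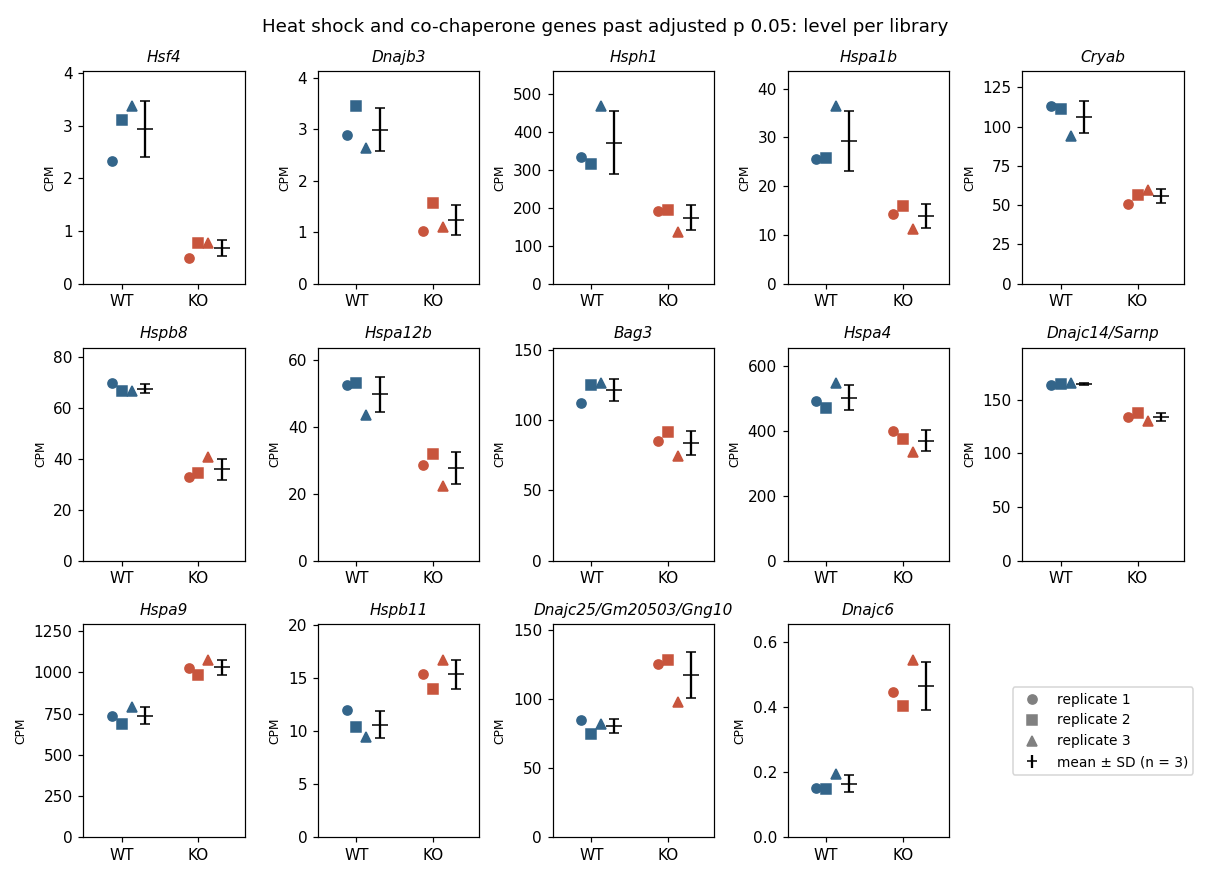
Each panel is a member past the threshold, with CPM on the vertical axis from 0, 1 point per library (circle, square and triangle for replicates 1, 2 and 3) and the mean ± SD of 3 libraries. The first 10 panels fell and the last 4 rose, and the points of WT and knockout do not overlap in any of the 14. The panels were picked by the test on these same libraries, so the separation adds no evidence. Of all genes tested 37.7% had groups that did not overlap.

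The J proteins were the largest group: 39 of 43 loci were tested, 2 rose and 2 fell. By family 0% of the tested DNAJA, 10% of the DNAJB and 12% of the DNAJC genes passed, against 16.1% of all genes. All 4 DNAJA genes, the general HSP70 partners, were tested and 0 passed in edgeR, 1 had an unadjusted p under 0.05, and DESeq2 called 0. Dnaja2, the most abundant by FPKM at 114 ± 9.91 in WT and 130.2 ± 9.71 in the knockout, had a log2 fold change of 0.20 ± 0.11 (adjusted p = 0.276). Dnaja3, the mitochondrial form, was at 104 ± 2.47 and 89.8 ± 1.07 CPM in a locus shared with Vasn (log2 fold change -0.22 ± 0.08, adjusted p = 0.0981). Dnajb1, the stress-inducible partner of HSP70, was at 51.5, 52.9 and 63.0 CPM in WT libraries and at 60.2, 63.8 and 47.8 CPM in the knockout. Its groups overlapped and its log2 fold change was 0.04 ± 0.14 (adjusted p = 0.883), with an interval of -0.28 to 0.35. The most abundant DNAJB genes by FPKM were the ER partner Dnajb11 (log2 fold change -0.15 ± 0.10, adjusted p = 0.350) and the neuronal ubiquitin-binding Dnajb2 (-0.28 ± 0.11, adjusted p = 0.111), and the most abundant DNAJC genes the splicing-associated Dnajc8 (0.05 ± 0.11, adjusted p = 0.767) and the HSP90 cofactor Dnajc7 (0.03 ± 0.10, adjusted p = 0.855).

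Among the other J proteins, Dnajb3 (chromosome 1, 88204732 to 88205782), a testis gene that lies inside the spans of 9 other genes, most of them of the Ugt1a cluster, was at 2.89, 3.45 and 2.63 CPM in WT libraries and at 1.03, 1.56 and 1.11 CPM in the knockout. It fell with a log2 fold change of -1.28 ± 0.23 (adjusted p = 0.0110, with 0.0515 without WT replicate 2 and 0.0526 without knockout replicate 1). Reads from those spanning transcripts could fall in it, which was not tested. Dnajc6, the neuronal clathrin-uncoating factor auxilin, was at 0.151, 0.149 and 0.196 CPM in WT libraries and at 0.446, 0.404 and 0.546 CPM in the knockout. It rose by a log2 fold change of 1.48 ± 0.32 (adjusted p = 0.0202). Its deposited count, which is after the authors' scaling, was as low as 9 in a WT library. Its adjusted p was 0.0892 and 0.0861 without WT replicates 1 and 2 and 0.0763 and 0.0548 without knockout replicates 1 and 2.

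The other 2 calls among J proteins belong to loci shared with other genes, and the member cannot be separated from its neighbour. The locus of Dnajc14 and Sarnp was at 163, 165 and 166 CPM in WT libraries and at 134, 137 and 130 CPM in the knockout. It fell by 0.30 ± 0.08 on the log2 scale (adjusted p = 0.0395), and the adjusted p was 0.129 and 0.118 without WT replicates 1 and 2 and 0.157 and 0.0926 without knockout replicates 1 and 2. The locus of Dnajc25, Gm20503 and Gng10 was at 85.1, 75.0 and 82.0 CPM in WT libraries and at 125, 128 and 97.9 CPM in the knockout. It rose by a log2 fold change of 0.54 ± 0.12 (adjusted p = 0.0242), with adjusted p of 0.0694 and 0.0991 without WT replicates 1 and 2 and of 0.107 and 0.0842 without knockout replicates 1 and 2. The other 35 tested J protein genes did not pass, and their log2 fold changes ran from -0.53 for Dnajc12 to 0.35 for Dnajc16.

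By compartment, 0 of the 10 ER members passed in edgeR, 1 had an unadjusted p under 0.05 and DESeq2 called 1, Dnajb12, with a median log2 fold change of -0.13 and 8 of 10 below 0. Besides Hspa5 and Hsp90b1 they included the ER J proteins Dnajc3 (129 ± 4.19 and 130.0 ± 2.95 CPM) and Dnajc10 (218 ± 7.41 and 205 ± 20.5 CPM). Of the 8 mitochondrial members only Hspa9 passed (12.5%, against 16.1% of all genes), and the median was -0.05. The chaperonin ring Hspd1 and its lid Hspe1 start 111 bases apart on opposite strands of chromosome 1. Hspd1 was at 73.5, 63.1 and 95.9 CPM in WT libraries and at 89.3, 95.9 and 112 CPM in the knockout, and Hspe1 at 38.2, 31.7 and 48.7 CPM and at 33.4, 37.7 and 30.3 CPM. Neither gene separated the genotypes: the log2 fold changes were 0.35 ± 0.16 (adjusted p = 0.185) and -0.22 ± 0.17 (adjusted p = 0.405). For Hspd1 the adjusted p was 0.0307 without WT replicate 3 and 0.251 to 0.448 without any other single library. Both genes share 44.8% of their windows with other genes, and Hspd1 with its pseudogene Hspd1-ps3 was at 200.3 ± 46.2 and 256 ± 39.9 CPM.

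Promoters were read for the 65 members with an entry in the RefSeq table (GRCm38.p6), as windows from 250 bases before to 50 bases after the start, and searched on both strands. The heat shock element of 3 units, GAA, TTC and GAA with 2 free bases between neighbours, was in the windows of 4 of 65 members (Dnajb6, Hspd1, Hspe1 and Hsph1) and of 0.662% of 27025 genes. The shorter GAANNTTC, which every such element contains, was in 14 of 65 members (21.5%) and 9.04% of all genes. It was in 4 of the 8 members with a window that fell (Bag3, Hspa1b, Hspb8 and Hsph1) and in 0 of the 3 that rose. Cryab and Hsf4, which fell, and Hspa9, which rose, were not in the table. The members with GAANNTTC that did not pass were Dnaja1, Dnaja4, Dnajb6, Dnajc27, Hspa1a, Hspb1, Hspb6, Hspd1 and Hspe1, and Hspb3 with it was not tested. A match says only that the letters are in the window.

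The stretches around these letters are printed for Hspb8 and Bag3, which passed the test, and for Hspd1, Hspe1 and Hspb1, which did not. These are examples, and other members with a match are not printed here. Capitals mark the element. For Hspd1 and Hspe1 the site between both genes (chr1:55088053-55088082, plus strand) holds the 3-unit element in overlapping copies. The Hspb8 site (chr5:116422845-116422872, minus strand) begins 2 bases after the start, that of Bag3 (chr7:128523615-128523632, plus strand) 42 bases after it, and that of Hspb1 (chr5:135887792-135887819, plus strand) 117 bases before it. Hspb1 has another match 97 bases before the start, which is not printed.
Hspd1 and Hspe1: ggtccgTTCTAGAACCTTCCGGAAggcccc
Hspb8: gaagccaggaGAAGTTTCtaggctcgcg
Bag3: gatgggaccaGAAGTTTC
Hspb1: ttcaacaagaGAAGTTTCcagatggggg

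The ER stress element, CCAAT and CCACG with 9 free bases between them, which NF-Y and ATF6 bind, was found in 3 members, Dnajc3, Hsp90b1 and Hspa5, and in 37 of 27025 genes (0.137%). All 3 are ER chaperone genes, and none passed the test. Each gene's first match is printed in capitals: Hspa5 at chr2:34772020-34772048 (plus strand, 65 bases before the start), Hsp90b1 at chr10:86705633-86705661 (minus strand, 212 bases before, with another match on the opposite strand 107 bases before that is not printed) and Dnajc3 at chr14:118937822-118937850 (plus strand, 105 bases before).
Hspa5: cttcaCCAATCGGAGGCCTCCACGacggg
Hsp90b1: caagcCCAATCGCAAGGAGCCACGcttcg
Dnajc3: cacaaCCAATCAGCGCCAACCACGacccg

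Chaperone genes outside the symbol rule were taken from 4 lists with 61 genes, all tested, of which 7 rose (11.5%, against 8.03% of all genes) and 1 fell (1.64%, against 8.08%), with a median log2 fold change of 0.00. Fkbp5, an immunophilin of HSP90 and a glucocorticoid target, was at 16.1, 15.0 and 20.5 CPM in WT libraries and at 44.8, 45.8 and 43.3 CPM in the knockout. The groups lay far apart, with a log2 fold change of 1.37 ± 0.13 (adjusted p = 0.000835), and it was the single gene of the lists to pass when WT replicate 1 or 2 or knockout replicate 1 or 2 was left out. Among the other 19 cytosolic HSP70 and HSP90 cofactors Fkbp4 rose (0.71 ± 0.17, adjusted p = 0.0270, 0.107 and 0.106 with WT replicate 1 or 2 left out, 0.110 and 0.0961 with knockout replicate 1 or 2 left out), Ttc4 rose (0.66 ± 0.15, adjusted p = 0.0225) and Tomm34 fell (-0.40 ± 0.10, adjusted p = 0.0302).

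Of the 14 genes of the cytosolic chaperonin TRiC and of prefoldin, Pfdn2 and Pfdn6 rose, by log2 fold changes of 0.42 ± 0.10 (adjusted p = 0.0235) and 0.57 ± 0.14 (adjusted p = 0.0333), and no TRiC subunit passed. Of 17 ER folding genes Herpud1, an ER degradation factor, rose (0.30 ± 0.08, adjusted p = 0.0453), and the median was -0.12. Of 10 mitochondrial folding and protease genes Clpb, a disaggregase, rose (0.50 ± 0.11, adjusted p = 0.0213), and the median was 0.14. With WT replicate 1 or 2 or knockout replicate 1 or 2 left out, the adjusted p of Ttc4, Pfdn2, Pfdn6, Herpud1 and Clpb lay between 0.0588 and 0.198. No list was tested as a set.

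**Figure D4:**
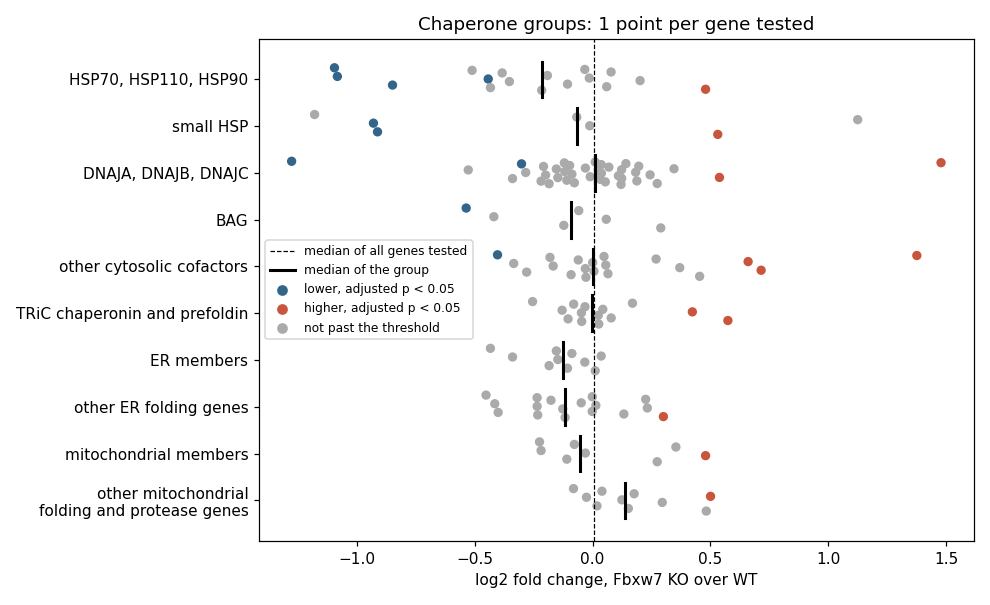
Each point is the log2 fold change (Fbxw7 KO over WT) of 1 tested gene, in rows for the member families and for the 4 lists of other chaperone genes. Short bars give the median of each row and the dashed line that of all genes tested. Blue points passed the threshold below 0 and red points above it.

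Replicates differed in how closely they agreed. Over the 75 tested members the median absolute log2 difference between replicates 1 and 2 was 0.11 in WT and 0.09 in the knockout, and that between replicate 3 and the mean of the other two was 0.20 and 0.21. Replicate 3 was the highest of the WT libraries for 42 members and the lowest of the knockout libraries for 37. Without replicate 3 of both genotypes 17 members rose and 20 fell, the 14 members called with all libraries were all among them, and 41.3% of all genes passed. When replicates 1 and 2 were added up to 1 sample per genotype, 0 rose and 3 fell, Cryab, Hspb8 and Hsf4, where 2.71% of all genes passed. These 3 were called under every one of the 20 alternative settings, and Hspa1b, Hspa12b and Hsph1 were, like them, called with each single library left out.

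**Figure D5:**
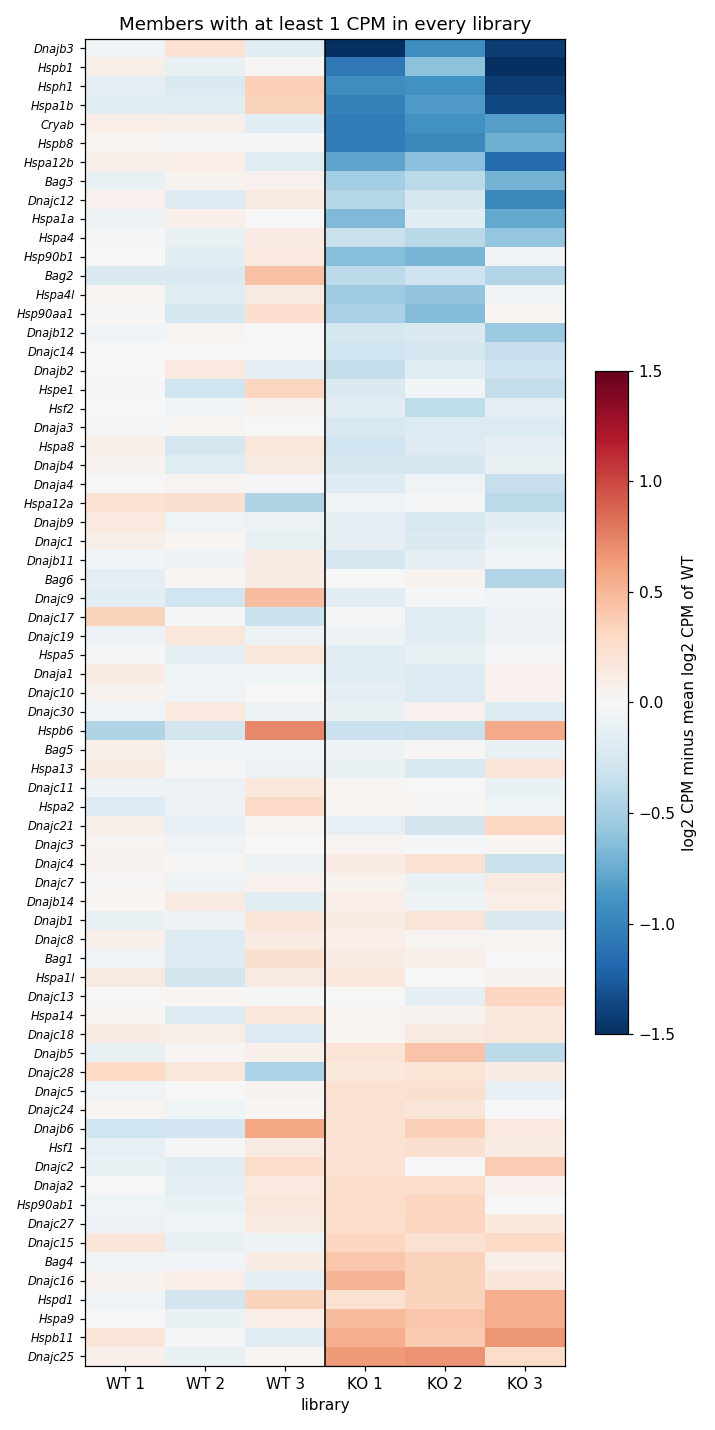
Rows are the 70 members with at least 1 CPM in every library, ordered by the difference between genotypes, and columns are libraries. Colour is log2 CPM minus the mean log2 CPM of the WT libraries, from -1.5 (blue) to 1.5 (red), and values beyond these limits take the end colours. Replicate 3 departs from replicates 1 and 2 in both genotypes for Hspb6, in the knockout for Hsp90b1 and in WT for Dnajb6.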

How the data were processed

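Total RNA of 6 libraries, 3 WT and 3 Fbxw7 KO, was analysed from 2 deposited tables. The authors deposited estimated counts (expected fragments per locus) and FPKM, as Cufflinks-style tracking tables per the file headers. The submitters' processing notes name TopHat2 2.1.1, SAMtools 1.5, deepTools, Cufflinks 2.2.1 and mm10; annotation and use of strand are not given in the sources used here. Of the deposited counts of each library 88.96% to 89.57% were whole multiples of 1 step (tolerance 0.05), which gives 51153903 to 70627289 fragments before the authors' scaling. Shared reads were divided by an estimate, which makes near-identical genes uncertain.

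The tables held 53323 loci. Left out were 1317 unnamed loci (3.13e-05% of a library at most) and 9 named loci marked HIDATA, where estimation was skipped. After rounding to whole numbers, genotypes were compared by the robust quasi-likelihood F test of edgeR 4.0.16 (R 4.3.3; two-sided, filterByExpr, TMM, genotype as the single term), with Benjamini-Hochberg adjustment over all genes tested. CPM use TMM factors; values are mean ± SD of 3 libraries and log2 fold changes ± SE. The test was checked on simulated data. Without molecular identifiers, PCR copies could not be told from separate molecules.

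Positions came from GENCODE M21 (mm10), matched for all 82 members. Copies were found as windows of 50 bases shared with transcripts of another gene, and pseudogenes were added where they held at least 5% of a member's windows. Alternatives were other normalizations and filters, the replicate number as a block, libraries left out or summed, DESeq2 1.42.0, and limma 3.58.1 on log2(FPKM + 1) or log2(FPKM + 0.1). The members and lists were chosen with earlier results of these data known. Full statistics are given for members past the threshold, the 2 most abundant of each family by FPKM and the tested Hsf genes; from the other lists, up to 3 genes with the smallest adjusted p, and Fbxw7. Other genes were named after their values were seen.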

Additional observations from a re-analysis of the deposited data

How the results depend on the processing

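With all 6 libraries, DESeq2 size factors kept 4 higher and 10 lower, upper-quartile factors gave 4 and 9, library size only 5 and 8, no count filter 4 and 9, a minimum of 1 CPM in 3 libraries 3 and 10, unscaled fragments 4 and 10, and DESeq2 4 and 13. Library size only put the median over all genes at 0.10 (log2) and that over the members at 0.02, with 35 of 75 members below 0 instead of 45, and it raised the share of all calls that were higher from 49.8% to 65.7%; limma on log2(FPKM + 1) gave 37.6%. Limma without a filter called 0 higher and 7 lower.

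With 1 library left out, 0 to 5 members were higher and 6 to 13 lower (0 higher without WT replicates 1 or 2 or knockout replicates 1 or 2), and 1169 to 3282 genes were called overall instead of 2705. Without replicate 3 of both genotypes 17 members were higher, 20 lower and 6993 genes called; with replicates 1 and 2 summed 0 members were higher, 3 lower and 484 genes called. Limma called 1562 and 1615 genes with either pseudocount and 1182 without a filter. The cause of these differences beyond fewer samples was not tested. The other chaperone genes had 7 higher and 1 lower; DESeq2 size factors gave 6 higher and 2 lower, DESeq2 10 higher and 4 lower, library size only 11 higher and 0 lower, and single libraries left out 1 to 8 higher and 0 to 4 lower. The sum of Hspa1a and Hspa1b ranged from -1.07 to -0.79 with 1 library left out, with adjusted p of 0.0522 (log2 fold change -0.93) without knockout replicate 1.

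Some members near 0 changed sign. Dnajc7 went to -0.0088 without WT replicate 2 and -0.0266 without knockout replicate 3 (range with 1 library left out -0.0266 to 0.0899), Dnajc8 to -0.0408 without WT replicate 2 (range -0.0408 to 0.1136), Bag1 to -0.0358 without WT replicate 2 (range -0.0358 to 0.1863) and -0.0231 with replicates 1 and 2 summed, and Bag6 to 0.0105 without knockout replicate 3 (range -0.218 to 0.0105). Without replicate 3 of both genotypes Bag6 was at 0.0711 and Hspe1 at 0.0252. None of them was called in a setting where its sign changed. Bag1 was called, without a change of sign, when replicate 3 of both genotypes was left out, where 41.3% of all genes passed.

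The correlations of same-numbered WT and knockout libraries were 0.02, 0.10 and 0.08. Knockout replicate 1 correlated best with WT replicate 2 (0.08), and knockout replicates 2 and 3 with the WT library of their own number. With 3 libraries per genotype such small correlations cannot decide whether the libraries are paired. With the replicate block 3 members were higher and 8 lower (Dnajc14, Hspa4 and Hspb11 were lost), 4 other chaperone genes were higher and 1 lower, and the Hspa1a and Hspa1b sum was at -0.93 (adjusted p = 0.0349).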
